A study of Mus musculus with 6 samples.

Results

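Stretches of the mouse genome with a methylation peak called in hematopoietic stem cells, and in neither of the later blood cell types profiled, numbered 34802 on the 19 autosomes. They were chosen from the deposited peak lists of 3 cell types, which are labelled hematopoietic stem cell (HSC), common myeloid progenitor (CMP) and erythroblast (ERY, a nucleated red cell precursor). Peaks of the 3 lists that overlapped or touched were merged, and a region was taken when it held an HSC peak, no CMP peak and no ERY peak. Peaks of the CMP and ERY lists are called later peaks below. These HSC-only regions were 40.9% of all 85078 merged autosomal regions (95% exact binomial interval 40.6 to 41.2%), and 42.3% of the 82364 that held an HSC peak (41.9 to 42.6%). These shares are fixed by the rule and are given as a description. The 2 other large classes used for comparison were the 22118 regions with a peak in HSC and CMP but not ERY, and the 24396 regions that held peaks of all 3 lists.

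Cells of each type came from C57BL/6 mice labelled female, with no further genotype, allele or treatment named in the labels. For HSC and CMP the labels' protocols give adult bone marrow after red cell lysis and depletion of cells bearing lineage antigens. From the lineage-negative cells that remained, HSC were sorted for the surface proteins Sca-1 and c-kit, and CMP for c-kit in the absence of Sca-1. The first gate is known to hold multipotent progenitors beside stem cells, and the second other myeloid and erythroid progenitors. The source of the erythroblasts, the age of their donors and the number of animals per library were not stated in the labels. A peak list holds no marker readout, so the cell type labels could not be checked against markers. Each cell type was represented by 1 MBD2-enriched library, so the comparisons below are descriptions of these libraries, without replicates and without tests. Intervals treat regions as independent and cover counting error only.

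Methylation of cytosine in CpG dinucleotides is a covalent mark that is copied to the new strand at cell division by a maintenance methyltransferase. It is lost either when this copying fails over successive divisions or when TET enzymes oxidise the mark and repair removes it. Methylation of promoters and enhancers is known for keeping genes silent, and in blood formation the pattern is rebuilt as stem cells commit to the myeloid, lymphoid and erythroid lineages. MBD2 is a reader protein whose domain holds methylated CpG sites. Its pulldown therefore enriches DNA where several methylated CpGs lie close together and passes over sparse ones. DNA outside a list may still carry methylation. With a single pulldown per cell type of unknown depth, a change in methylation and a change in the sensitivity of the list cannot be told apart.

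The autosomal lists held 83430 HSC, 49054 CMP and 27266 ERY peaks, which covered 67.5, 42.1 and 22.5 Mb. The HSC-only regions covered 24.5 Mb, which was 36.4% of the bases under HSC peaks. Each of them consisted of exactly 1 HSC peak. Among regions of HSC and CMP 1.02% joined more than 1 HSC peak, and among regions of all 3 cell types 3.29% did. Where HSC peaks do not touch each other, only a later peak can join them, so this contrast follows from the rule. Genes and sequences at the regions are not given, because no genome or gene annotation of the files' build, mm9, was at hand. Regions are named by 1-based mm9 coordinates.

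The HSC-only regions were the narrowest of the classes with an HSC peak. Their median width was 677 bp, and the central 50% of them lay between 539 and 829 bp. The HSC peaks of regions shared with CMP alone had a median of 761 bp (interquartile range 605 to 949.75 bp), and those of regions present in all 3 cell types 885 bp (703 to 1138 bp). The classes overlapped widely. Of the regions shared with CMP alone 35.8% were no wider than the median HSC-only region, and of those in all 3 cell types 21.6% were. Regions private to a later list were narrow too. The 1440 CMP-only regions had a median of 641 bp and the 1000 ERY-only regions 683.5 bp, whereas regions of all 3 cell types had medians of 898 bp under CMP peaks and 802 bp under ERY peaks. Width was not named in the rule, but a wider peak meets another peak more easily, so these values are descriptions.

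The class of a region differed with its width. Of the 2576 regions with under 400 bp of HSC peak, 74.7% (73.0 to 76.4%) were HSC-only and 4.54% were present in all 3 cell types. The share of HSC-only regions was 56.1% at 400 to 499 bp and 52.6% at 600 to 699 bp. It was 34.9% at 900 to 999 bp, where regions of all 3 cell types also made up 34.9%. From 1000 to 1199 bp HSC-only regions made up 26.0%, and from 1500 to 1999 bp 9.55%. At 2000 bp and above they were 3.21% of 1089 regions (2.25 to 4.44%), and 85.5% were present in all 3 cell types. The share of regions with HSC and CMP peaks only stayed between 19.8 and 29.0% over widths up to 1999 bp. The share of the widest group depended on the overlap rule. When an HSC peak counted as shared only if 50% of it was covered by later peaks, 14.0% of HSC peaks of 2000 bp and above counted as HSC-only.

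**Figure D1:**
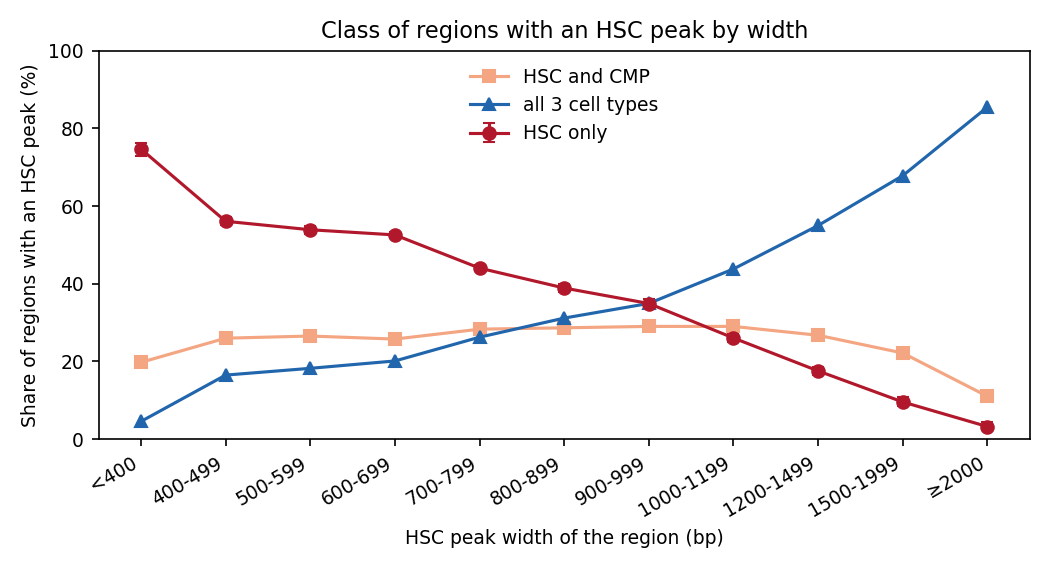
Share (%) of regions with an HSC peak that fall in each class, by the width of the HSC peak or peaks in the region (bp); error bars on the HSC-only points are 95% exact binomial intervals. HSC-only regions go from 74.7% of the narrowest regions to 3.21% of the widest, and regions of all 3 cell types from 4.54% to 85.5%.

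The 10 widest HSC-only regions measured 2304 to 2933 bp, and 8 of them lay within 10 kb of a later peak, against 51.8% of all HSC-only regions. The widest, chr11:102637003-102639935 (2933 bp), was one of the other two, with no other HSC region within 10 kb, the nearest CMP peak 86664 bp away and the nearest ERY peak 69140 bp away. The second, chr11:87614480-87617309 (2830 bp), had 4 other HSC regions within 10 kb, and 3 of these were HSC-only. Its nearest ERY peak was 3051 bp away and its nearest CMP peak 10009 bp away. On chromosome 8, chr8:48862236-48864827 (2592 bp) stood 6519 bp from an ERY peak, with 1 neighbour within 10 kb that was present in all 3 cell types. The region chr8:119632508-119634963 (2456 bp) lay 5910 bp from a CMP peak but 75906 bp from an ERY peak.

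Chromosome 17 held 3 of the 10. The regions chr17:6960796-6963211 (2416 bp) and chr17:68260845-68263247 (2403 bp) lay 1175 and 967 bp from a CMP peak, and 12116 and 22786 bp from an ERY peak. The third, chr17:63328006-63330324 (2319 bp), had no other HSC region within 10 kb. On chromosome 2, chr2:155815620-155817988 (2369 bp) had 3 HSC regions within 10 kb, and all 3 of these had peaks in all 3 cell types. The remaining 2 were chr14:31372462-31374773 (2312 bp) and chr3:89027506-89029809 (2304 bp), 3495 and 3949 bp from the nearest CMP peak. At the other end of the range, the narrowest HSC-only regions were chr2:18194451-18194696 (246 bp), and chr1:45667736-45667988 and chr17:66879757-66880009 (253 bp each).

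HSC-only regions lay about as far from later peaks as regions of HSC and CMP did from other regions with a later peak. Measured to the ends of merged regions, the median distance to another region with a later peak was 9255 bp for HSC-only regions, 9302.5 bp for regions of HSC and CMP and 6953.5 bp for regions of all 3 cell types. Such a region lay within 1 kb in 11.2, 11.7 and 15.3% of cases, and none lay within 100 kb in 3.68, 4.78 and 3.57%. Measured to the peaks themselves, the median distance from an HSC-only region to the nearest CMP or ERY peak was 9311.5 bp, and 25% of regions were within 3008 bp. For CMP peaks alone the median was 9770.5 bp and for ERY peaks alone 19103.5 bp, in the order of the number of peaks in the 2 lists. A later peak lay within 100 bp of 302 HSC-only regions (0.868%), within 1 kb of 3659 (10.5%, interval 10.2 to 10.8%) and within 5 kb of 12186 (35.0%, 34.5 to 35.5%). With peaks within 500 bp merged, which removes the closest regions by construction, the share within 1 kb was 4.61%. For 1283 regions no later peak lay within 100 kb. Where a later peak was within 1 kb, the nearest region with a later peak was present in all 3 cell types in 54.3% of cases and in HSC and CMP in 40.0%. It held no HSC peak in 134 of the 3659 cases (3.66%), which is 0.385% of the HSC-only set. Over all HSC-only regions, at any distance, the nearest region with a later peak was present in all 3 cell types in 48.0% and in HSC and CMP in 45.0%. It was CMP-only in 2.74%, ERY-only in 1.70% and of CMP and ERY in 0.517%. The shares within 1 kb were thus near those of the whole set.

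At the boundary of the rule, 28 HSC-only regions lay within 10 bp of a later peak. The 5 nearest were chr3:152682653-152683467, chr7:74878908-74879588, chr2:155968938-155969516 and chr11:117212598-117213117, each with 1 base between it and a CMP peak, and chr7:132936191-132936814 with 2 bases. Just outside the rule stood 2 HSC peaks that touched a later peak without overlap. Others had 2 bases under a later peak, at chr9:119452053-119452956, chr15:76185410-76186313, chr11:88695190-88696042, chr10:41496168-41497009 and chr6:92000904-92001649. Such slight contact was rare. Among the 48626 HSC peaks with at least 1 base under a later peak the median peak was covered over 91.3% of its length, and 2.49% were covered over less than 50%.

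The 5 HSC-only regions farthest from later peaks, chosen after their values were seen, had no other HSC region within 10 kb. They were chr14:4535266-4535752 (487 bp), 3.20 Mb from any later peak, and chr8:22140415-22141621 (1207 bp), 679734 bp away. The others were chr10:27141961-27142666 at 581586 bp, chr11:38793360-38794025 at 492401 bp and chr19:50731054-50731804 at 484965 bp.

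The surroundings of HSC-only regions were like those of regions of HSC and CMP and less rich in peaks than those of regions present in all 3 cell types. From 2 to 5 kb beside the centre of an HSC-only region, 6.68% of bases were under another HSC peak, 4.21% under a CMP peak and 2.33% under an ERY peak. Beside regions of HSC and CMP the values were 6.75, 4.33 and 2.26%, and beside regions of all 3 cell types 8.78, 5.86 and 3.64%. The CMP coverage thus came to 63.0% of the HSC coverage beside HSC-only regions, 64.2% beside regions of HSC and CMP and 66.7% beside regions of all 3. For ERY it came to 34.9, 33.5 and 41.4%. From 5 to 10 kb the same ratios were 62.4, 64.1 and 65.5% for CMP, and 34.6, 33.6 and 39.8% for ERY. Later coverage 2 to 10 kb from HSC-only regions was thus close to that beside regions of HSC and CMP. It was not particular to them. Over all autosomes HSC, CMP and ERY peaks covered 67.5, 42.1 and 22.5 Mb, and the ratios beside HSC-only regions were close to those of the whole lists. These ratios carry no interval. The coverage also counts a region's own peaks where these reach so far from the centre. HSC-only regions measured at most 2933 bp, while regions of all 3 cell types held up to 19797 bp of HSC peak. In 95% of the latter it was at most 1872 bp, and the part of the widest regions in the difference was not tested.

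**Figure D2:**
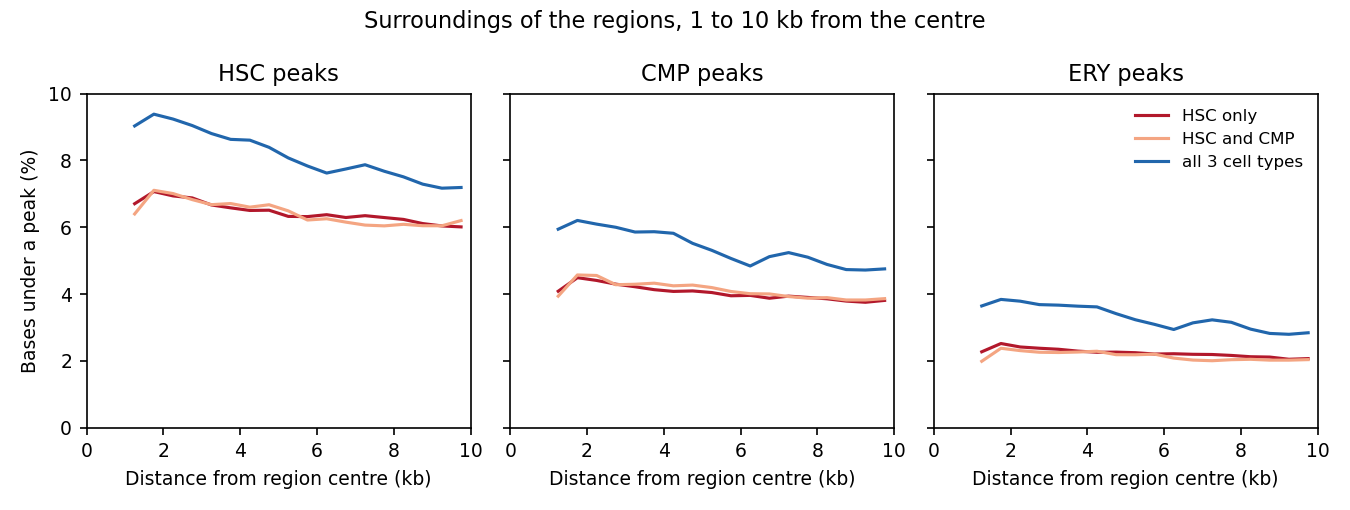
Percentage of bases under HSC, CMP and ERY peaks (panels) at 1 to 10 kb from the centre of a region, in bins of 500 bp averaged over both sides; lines are the 3 classes of region. The HSC-only and the HSC and CMP lines nearly coincide in each panel, and regions of all 3 cell types lie above them, for example 5.86% against 4.21% of bases under a CMP peak at 2 to 5 kb. Bases of a region's own peaks are counted where these reach past 1 kb.

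An HSC-only region was followed by another slightly more often than regions of other classes were. When the regions with an HSC peak were read along each chromosome, the region after an HSC-only one was HSC-only in 43.1% of 34794 cases (42.5 to 43.6%). The region after any other class was HSC-only in 41.7% of 47551 cases (41.2 to 42.1%). The difference of 1.39 percentage points was small beside the 42.3% in all. It varied with the gap, without a steady order. With a gap of at most 200 bp, 40.6% of regions beside an HSC-only region were HSC-only, against 37.1% of those beside another class. With a gap of 500 bp to 1 kb the values were 41.4 and 37.9%, from 1 to 2 kb 40.9 and 39.8%, from 2 to 5 kb 42.9 and 40.0%, and from 20 to 50 kb 43.4 and 44.3%. With regions divided into 4 equal groups by HSC width, the difference was 0.392 points in the narrowest group (246 to 595 bp), then 1.49, 1.04 and 1.51 points. It was 8.31 points when CMP and ERY peaks were extended by 1 kb, a setting that by construction gives close neighbours the same class.

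**Figure D3:**
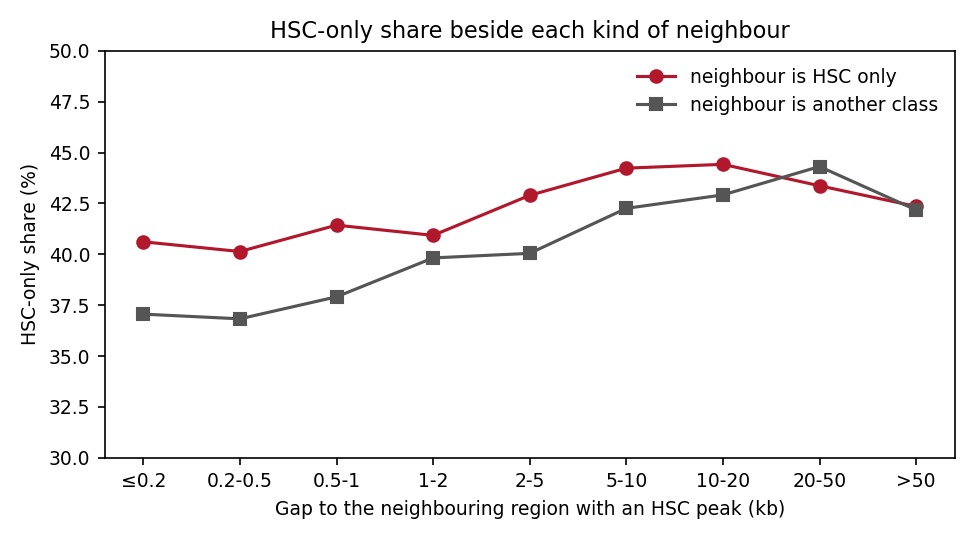
Share (%) of regions that are HSC-only beside an HSC-only neighbour (circles) and beside a neighbour of another class (squares), by the gap between the pair (kb); the vertical axis starts at 30%. The circles lie above the squares at each gap up to 20 kb, at 40.6 and 37.1% for the closest pairs, and below them at 20 to 50 kb, at 43.4 and 44.3%.

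Runs of HSC-only regions with no region of another class between them were mostly short. There were 20282 such runs, and 11866 of them consisted of a single region, which was 34.1% of the HSC-only set. Pairs held another 28.0% and runs of 3 regions 17.9%. Runs of at least 5 regions numbered 621, held 10.2% of the set and spanned a median of 83.9 kb. The longest had 12 regions and occurred 3 times, and 5 runs had 11. HSC-only regions were 42.3% of all regions with an HSC peak, and at such a share runs arise without any clustering. Whether the runs were longer than this share alone gives was not tested, so they are not read as clusters.

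The tightest run of 12, chr15:95602249-95696702, spanned 94.5 kb with a median gap of 6576 bp between its regions. Its first pair, chr15:95602249-95603211 (963 bp) and chr15:95603257-95603746 (490 bp), stood 45 bp apart. Its widest region, chr15:95615292-95616271, measured 980 bp, and its narrowest, chr15:95692624-95692999, 376 bp. Later peaks resumed 3705 bp before the run and 5017 bp after it. HSC-only peaks covered 9.29% of the span, and the region farthest inside, chr15:95650710-95651465, was 50254 bp from the nearest later peak. The lack of later peaks inside a run follows from how runs were defined.

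The other runs of 12 were looser. They lay at chr16:94518297-94727227, over 208.9 kb, and at chr1:51845878-52148001, over 302.1 kb, with median gaps of 14892 and 25380 bp. Among the runs of 11 the most compact was chr11:35677788-35768561, over 90.8 kb, with 12.1 regions per 100 kb against 12.7 in the run on chromosome 15. The next, chr12:25462044-25624183, began 154 bp after a later peak.

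In windows of 1 Mb the number of HSC-only regions followed the number of all HSC regions. Of 2410 windows with an HSC region, 2366 held an HSC-only one. Across these windows the counts of HSC-only regions and of all regions with an HSC peak had a Pearson r of 0.96 (Spearman rho 0.96, n = 2410), a description in which the first count is part of the second. In the 1434 windows with at least 20 HSC regions the median share of HSC-only regions was 43.3%. The central 50% of these windows lay between 37.5 and 48.9%, and the whole range was 17.1 to 80.0%. Across them the share was lower where the HSC regions were wider (Pearson r -0.32, Spearman rho -0.31 against the median width). That median includes the HSC-only regions, which are narrower, so it is not independent of the share.

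The window with the highest share was chromosome 2 from 115 to 116 Mb, where 16 of 20 HSC regions (80.0%, interval 56.3 to 94.3%) were HSC-only and 1 was present in all 3 cell types. Chromosome 17 from 75 to 76 Mb had 38 of 51 (74.5%, 60.4 to 85.7%). Chromosome 17 from 44 to 45 Mb had 24 of 34 (70.6%), and there the HSC-only regions lay at least 9599 bp from any later peak. Chromosome 5 from 132 to 133 Mb had 21 of 30 (70.0%), and chromosome 2 from 146 to 147 Mb had 16 of 23 (69.6%). Regions of all 3 cell types made up at most 13.7% in these 5 windows, against 24396 of the 82364 HSC regions on all autosomes. A high HSC-only share leaves little room for other classes, so this follows from how the windows were picked. The reverse holds for the lowest windows below. The median HSC width there was 574 to 734 bp.

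The lowest share was on chromosome 8 from 73 to 74 Mb, with 12 of 70 (17.1%, 9.18 to 28.0%) HSC-only and 37 present in all 3 cell types. Chromosome 18 from 37 to 38 Mb had 16 of 82 (19.5%, 11.6 to 29.7%), at a median HSC width of 1152 bp, and 38 of its regions were present in all 3 cell types. The windows from 3 to 4 Mb on chromosomes 6 and 16, and from 65 to 66 Mb on chromosome 3, each had 4 HSC-only regions, of 21, 20 and 21. These windows were picked as the extremes of 1434, so their values overstate how far they stand apart, and the intervals of the smallest ones are wide. In number, chromosome 11 from 116 to 117 Mb and chromosome 8 from 124 to 125 Mb had the most HSC-only regions, with 69 each, of 139 and 141 HSC regions. Chromosome 4 from 140 to 141 Mb had 67, of 149, and from 151 to 152 Mb 64, of 155.

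Width and local density each went with the share of HSC-only regions, and in part in opposite ways. Density here is the number of HSC regions in the window, which includes the HSC-only regions themselves. It is therefore not independent of the share, and the values are descriptions. Windows with 1 to 5 HSC regions had 34.2% HSC-only (29.7 to 38.9%), those with 21 to 40 regions 44.3% (43.5 to 45.0%), and those with more than 80 regions 40.0% (39.3 to 40.7%). The median width of HSC regions went from 670 bp in the first to 817 bp in the last. Among the narrowest 25% of regions (246 to 595 bp) the share was 39.7% in windows of 1 to 5 regions, 50.3% at 11 to 20, 60.6% at 41 to 60 and 59.6% above 80. Among the widest 25% (952 bp and above) it was 13.6, 20.2, 23.5 and 20.9%. In the group of 752 to 951 bp it was 40.6, 40.0 and 40.2% in windows of 41 to 60, 61 to 80 and more than 80. In the widest group the interval was 22.3 to 24.8% in windows of 41 to 60 and 19.9 to 21.9% above 80. In these libraries the narrow regions of the sparsest windows were HSC-only less often than those of the densest. Their intervals were 31.9 to 48.0% and 57.9 to 61.2%. These intervals take neighbouring regions as independent, and the differences were not tested. The sparsest group rests on 151 narrow regions.

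**Figure D4:**
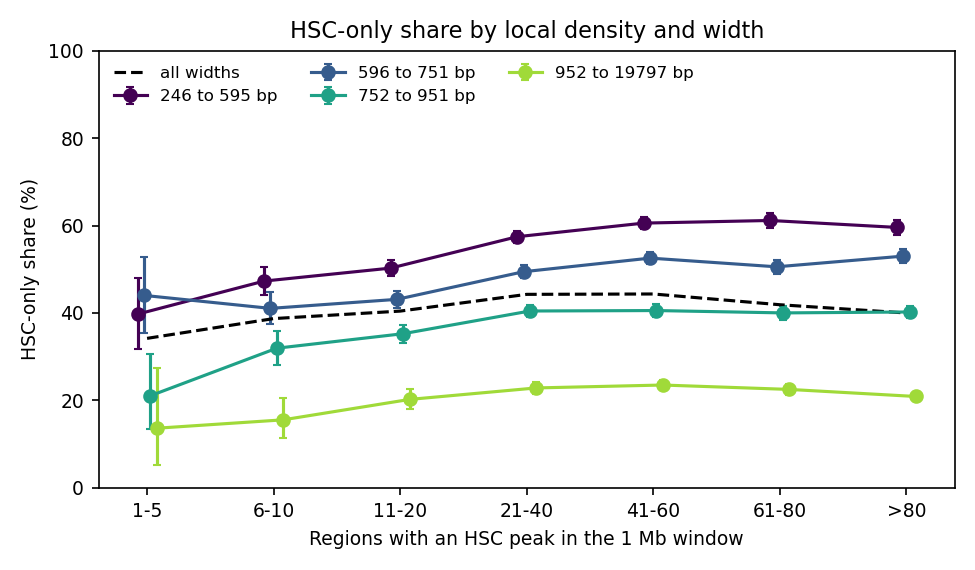
Share (%) of regions with an HSC peak that are HSC-only, by the number of such regions in the 1 Mb window, for 4 equal groups of regions by HSC width (solid lines, 95% exact binomial intervals) and for all widths (dashed). The narrowest group goes from 39.7% to 59.6% and the widest from 13.6% to 20.9%, while the dashed line reaches 44.3% in the middle and is 40.0% at the right.

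Isolated HSC-only regions were narrower. The 6190 with another HSC region within 1 kb had a median width of 699 bp, and the 509 with none within 100 kb had 621 bp. The other classes showed the same order. Regions of all 3 cell types had a median of 1008.5 bp where another region with a later peak lay within 200 bp, and 751 bp where none lay within 100 kb. For HSC-only regions the corresponding medians were 700 and 638 bp. The share of HSC-only regions was 39.3% among HSC regions with a neighbour within 1 kb, 44.1% at 5 to 20 kb and 38.5% beyond 100 kb.

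The HSC-only share was similar on all autosomes. It ranged from 40.1% on chromosome 7 (38.6 to 41.5%) to 44.0% on chromosome 6 (42.5 to 45.5%), with a median of 42.3% and an SD of 0.964 points over the 19 autosomes. The number per Mb varied more, from 10.3 on chromosome 14 to 17.8 on chromosome 17, and followed the density of all HSC regions (Pearson r 0.99, Spearman rho 0.97, n = 19, where the first count is part of the second). The order of widths was the same on each autosome. The median width was 660 to 695 bp for HSC-only regions, 724 to 784 bp for regions of HSC and CMP and 826 to 937.5 bp for regions of all 3 cell types, so the ranges over 19 autosomes did not overlap. The autosomes share the same libraries and are not replicates. The share of HSC-only regions with a later peak within 1 kb was 7.82% on chromosome 6 and 14.5% on chromosome 15.

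**Figure D5:**
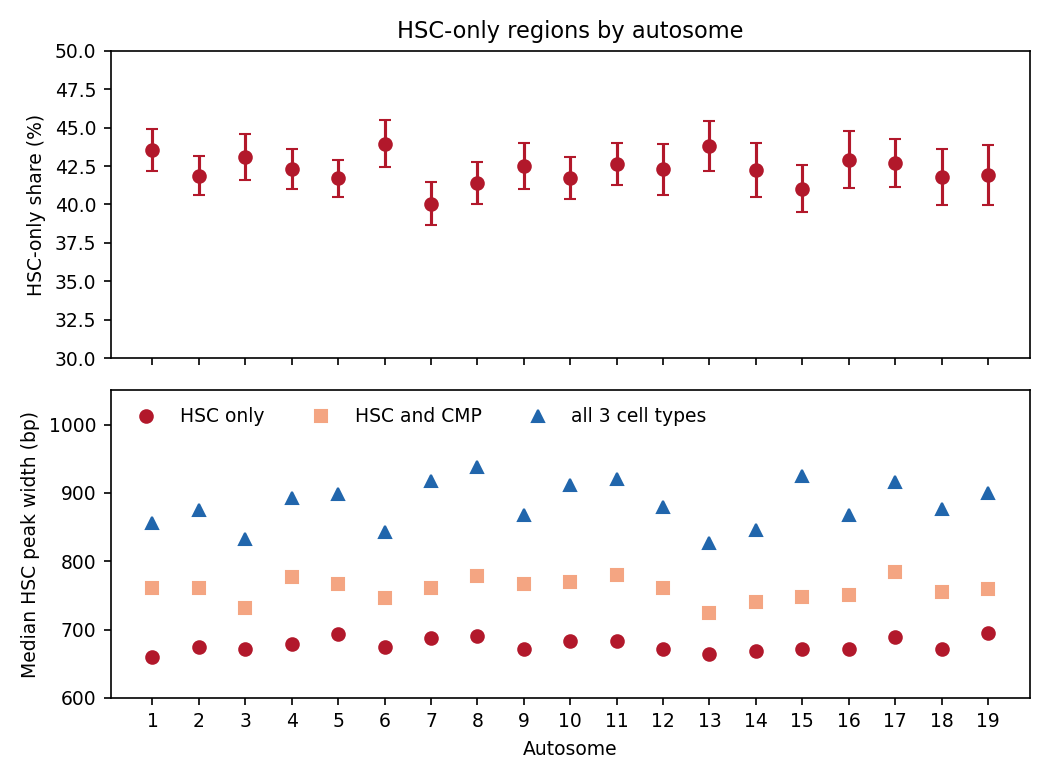
Top, share (%) of regions with an HSC peak that are HSC-only on each autosome, with 95% exact binomial intervals and an axis from 30 to 50%; bottom, median HSC peak width (bp) of the 3 classes on each autosome, with an axis from 600 bp. The shares lie between 40.1 and 44.0%, and on each of the 19 autosomes the HSC-only median is the lowest and that of regions in all 3 cell types the highest.

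Along the chromosomes HSC-only regions were densest at the distal end, as were all HSC regions. Each autosome was divided into 10 equal parts from its first to its last peak. The first part had 10.5 HSC-only regions per Mb, the ninth 20.5 and the last 25.1. All regions with an HSC peak numbered 26.0, 48.0 and 60.0 per Mb in the same parts. The HSC-only share was lowest in the first part, at 40.2% (39.0 to 41.4%), and highest in the seventh, at 44.0% (42.9 to 45.2%). It was 41.8% in the last (41.0 to 42.6%). Single autosomes varied more, from 30.7 to 46.1% in the first part. The median width of HSC-only regions was 654 bp in the first part and 698 bp in the last.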

How the data were processed

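Methylated DNA was enriched by MBD2 pulldown from HSC, CMP and ERY and sequenced as 36 bp single-end reads, per the labels' protocols. For each cell type the authors deposited a list of peaks with 3 columns, the chromosome, start and end of each peak, exported from a genome browser per the file headers. These values are positions on mm9, per the submitters' processing notes, with no score, height or p-value. Aligner, peak caller, threshold, control and depth were not given in the sources read. The 3 supernatant libraries of the 6 samples are not analysed here.

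The peaks on the 19 autosomes were merged where they overlapped or touched, and regions were classed by the lists present. The members and the comparisons were chosen with earlier results of these data known. Regions named were the 10 widest, the 5 nearest to a later peak, 5 windows of 1 Mb from each end of the ranking by share (at least 20 regions), and the 5 longest runs, ties going to the shorter span. A planned choice by number of HSC peaks was void, since each region holds 1. Planned sequence, motif, gene feature and gene list results were not run, as the tables at hand are of another build.

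Shares carry 95% Clopper-Pearson intervals. Computation used scipy 1.17.1, pandas 2.3.3 and numpy 2.4.6 under Python 3.11.15, and figures matplotlib 3.10.9. The functions were tested on simulated data and checked against bedtools 2.31.1. Alternatives covered the overlap rule, merging within 500 bp, later peaks extended by 1 kb, the wider 50% of HSC peaks, X, single-peak regions and leaving out each chromosome.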

Additional observations from a re-analysis of the deposited data

How the results depend on the processing

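The 34802 HSC-only regions became 34804 when touching peaks were not merged, 31872 with peaks within 500 bp merged, 36013 when 50% of the HSC peak had to be covered, 31143 with later peaks extended by 1 kb and 35648 with X. The wider 50% of HSC peaks left 12891, by construction. The share of HSC regions was 41.1% with merging within 500 bp, 43.2% with the 50% rule, 37.8% with extension and 31.1% in the wider 50%. The median width was 681, 685 and 889 bp with merging, the 50% rule and the wider 50%. The width difference from regions of all 3 cell types, -208 bp, was -237 bp with merging, -168 bp with the 50% rule, -192 bp with extension, -127 bp in the wider 50% and -195 bp in single-peak regions. No direction changed under these settings. Leaving out each chromosome gave 32172 to 33722 regions, shares of 42.2 to 42.4%, medians of 676 to 678 bp and differences of -210 to -205 bp. The share within 1 kb of a later peak, 10.5%, was 4.61% with merging, which removes such regions by construction. No paired analysis was possible because each cell type has 1 library. Library depth is unknown, and its part in the class sizes was not tested. Sequence, gene feature and gene list alternatives were not run.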

Other observations

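Chromosome X lay outside the rule and is described here on its own. Of its 2348 regions with an HSC peak, 846 (36.0%, interval 34.1 to 38.0%) had no CMP and no ERY peak, below the lowest autosome. They were narrower than on any autosome, with a median of 629 bp, while regions of HSC and CMP on X had a median of 766 bp and regions of all 3 cell types 908.5 bp, both within the autosomal ranges. HSC-only regions on X were also sparse, at 5.08 per Mb against 10.3 to 17.8 on the autosomes. They were far from later peaks, at a median of 25102 bp against 7162 to 12406 bp on the autosomes. A later peak lay within 1 kb of 5.79% of them. X held fewer regions with an HSC peak than any autosome, the lowest of which was chromosome 19 with 2577 over 61.3 Mb up to its last peak. These counts do not allow for chromosome length. Whether the distance follows from the sparseness of regions on X was not tested.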
